A study of Mus musculus with 12 samples.

Results

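The genes described here are the sugar and monocarboxylate transporter families of the mouse, taken as every gene on the array whose single annotation symbol begins with Slc2a, Slc5a, Slc16a or Slc37a. There were 42 such genes among 18193 measured genes, namely 12 Slc2a, 13 Slc5a, 13 Slc16a and 4 Slc37a genes. One of the Slc2a symbols, Slc2a4rg-ps, is a pseudogene of a regulator of the insulin-sensitive glucose transporter gene and not a transporter itself. Expression was measured by one-colour Affymetrix microarrays in 4 groups of 3 arrays: lung of virgin mice, lung of pregnant mice, liver of virgin mice and liver of pregnant mice. All animals were female NOD/SCID mice, an immunodeficient strain lacking mature B and T cells, bred in house and 8 to 10 weeks of age when the experiments began. The pregnant animals were at day 16 of gestation. Each array held RNA pooled from 2 mice, so the p-values given here measure the spread between pools. Whole organs were ground, so every level is an average over all cells of the organ, and for a lower value, fewer cells of a type and less RNA per cell cannot be told apart.

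Membrane transporters of these families decide which small fuels enter and leave a cell. The Slc2a genes encode the GLUT transporters. Most of these let glucose, fructose or urate move down their gradients, while Slc2a13 carries inositol together with a proton. The Slc5a genes encode sodium-coupled carriers of glucose, inositol, iodide, choline, vitamins and short monocarboxylates. The Slc16a genes encode the MCT family, of which a few members carry lactate, pyruvate and ketone bodies together with a proton while others carry aromatic amino acids, creatine or thyroid hormone. The Slc37a genes encode sugar-phosphate exchangers, the best known of which brings glucose-6-phosphate into the endoplasmic reticulum for the last step of glucose release from liver.

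Values are log2 expression values from the RMA method, and a difference of 1 on this scale is a 2-fold difference. The array medians lay between 4.49 and 4.56, and arrays of one group correlated with each other at 0.992 to 0.996 over all probe sets. The tissue labels were borne out by marker genes, since 7 hepatocyte markers averaged 13.3 to 13.5 on the liver arrays and 4.81 to 5.22 on the lung arrays, and 7 lung epithelial markers averaged 12.2 to 12.3 on the lung arrays and 4.39 to 4.53 on the liver arrays. Pool 3 of virgin liver and pool 3 of pregnant liver stood apart in their poly-A spike controls, which averaged 4.91 and 5.46 there and 11.8 to 12.3 on the other 10 arrays. Changes in liver are therefore also given within pools 1 and 2 and within pool 3. A level of 4.60, the median over all probe sets, serves as a mark for dim signals, and 11 of the 42 genes lay below it in all 4 groups. Of these 11 genes, 7 were Slc5a, 3 Slc16a and 1 Slc2a genes, whereas 19 of the 42 genes lay above the mark in all 4 groups.

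The first comparison asked which transporters differed between pregnant and virgin liver. The largest rises were those of Slc16a6, an MCT family gene, and Slc37a1, a sugar-phosphate exchanger, both of which were more than 4 units higher on the log2 scale in pregnant liver. Slc2a2, the GLUT2 gene through which hepatocytes take up and release glucose, fell by more than 1 unit. In all, 12 of the 42 genes (28.6%) changed at an adjusted p under 0.05 in limma, 6 up and 6 down, where 13.6% of all measured genes changed. The median change was -0.02 over the 42 genes and -0.01 over all genes.

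By family, the counts were as follows. Among the Slc16a genes, 8 of 13 changed, 4 up and 4 down. Among the Slc37a genes 2 of 4 rose, among the Slc2a genes 2 of 12 fell, and among the Slc5a genes 0 of 13 changed, with 1 of 13 at an unadjusted p under 0.05. The pregnant and virgin liver pools did not overlap for 14 of the 42 genes, 7 up and 7 down, and for 28% of all measured genes. These 14 were the 12 genes that changed together with Slc2a3 and Slc5a3.

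**Figure D1:**
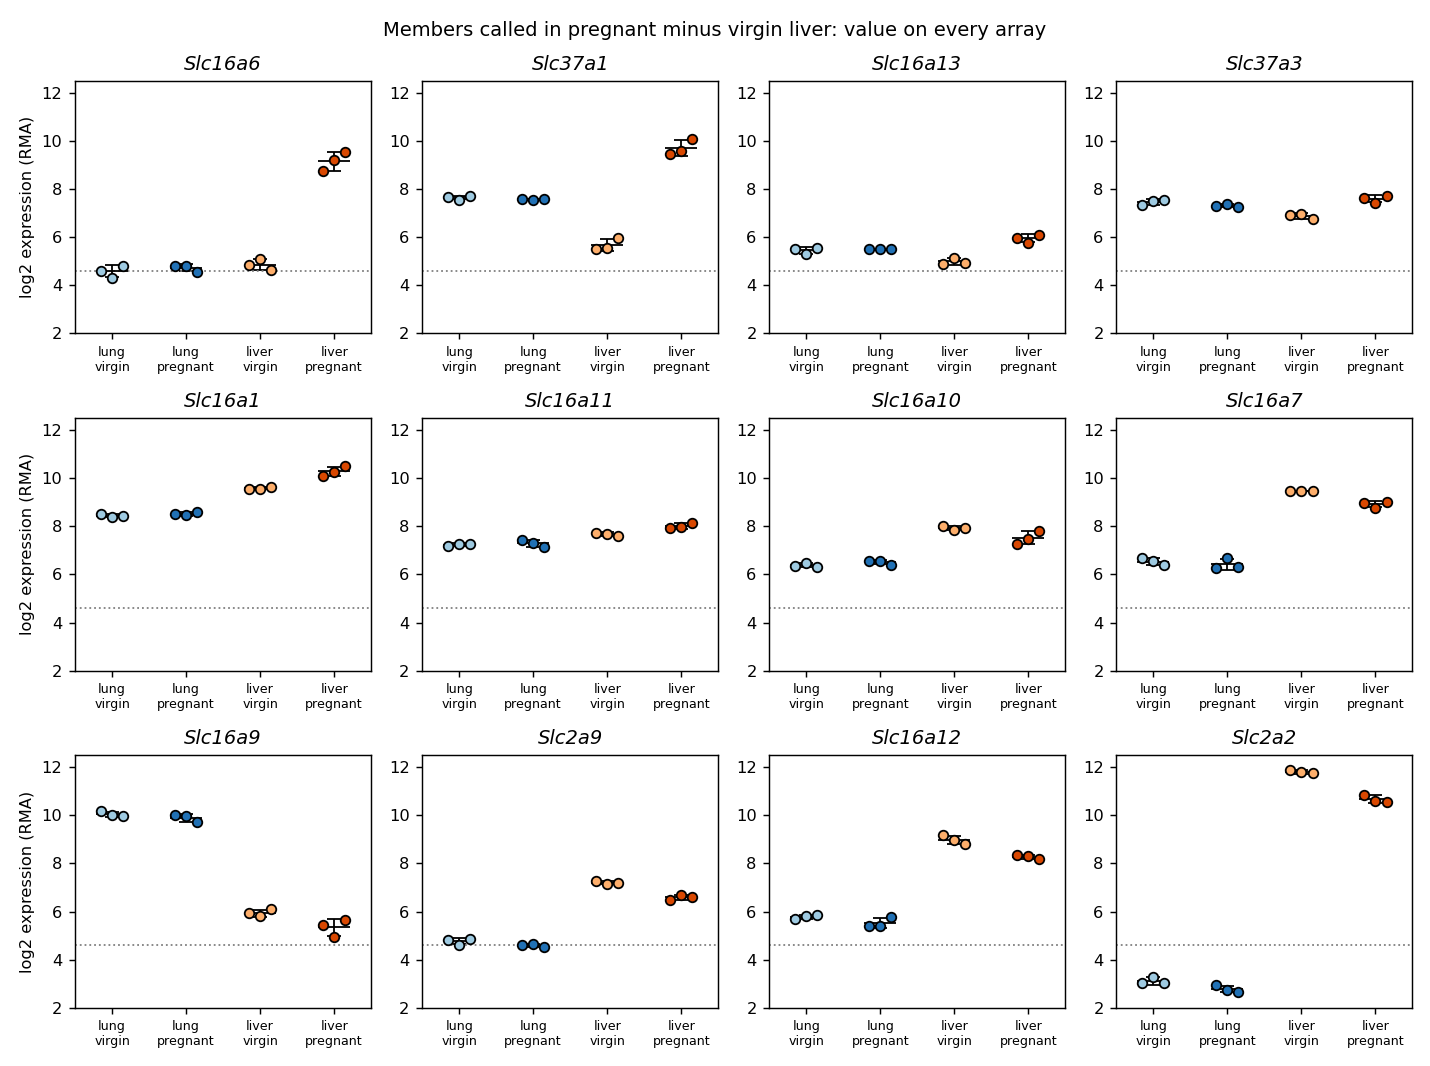
Log2 expression (y axis) of the 12 genes that changed in liver, with 1 point per array in 4 groups of 3 arrays; horizontal bars are means with SD and the dotted line marks the dim level of 4.60. Slc16a6 and Slc37a1 reached 8.75 to 10.1 in pregnant liver, above every other array of the same gene.

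Slc37a1 encodes a glucose-6-phosphate and phosphate exchanger. It read 5.51, 5.55 and 5.97 in the virgin liver pools and 9.46, 9.60 and 10.08 in the pregnant liver pools. All pregnant pools lay far above all virgin pools. The rise came to 4.04 ± 0.15 (SE over 3 pools in each group; 16.4-fold; limma adjusted p = 6.9e-10), with 4.00 within pools 1 and 2 and 4.11 within pool 3. In lung the same gene read 7.70, 7.57 and 7.71 in virgin pools and 7.61, 7.56 and 7.59 in pregnant pools. Virgin lung was thus above virgin liver, whereas pregnant liver was above pregnant lung.

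The promoters of 3 genes with large or well-measured changes in liver are shown so that the letters can be read beside the values. They are the 250 bases before the annotated start, all on the plus strand, from RefSeq (GRCm38.p6; reference strain, not NOD/SCID), and the choice of Slc2a2 and Slc16a1 was made after the values were seen. Capitals mark CACGTG, the E-box read by ChREBP-type and MYC-type factors. The windows are chr17:31295974-31296223 for Slc37a1, chr3:28697653-28697902 for Slc2a2 and chr3:104638414-104638663 for Slc16a1.
Slc37a1: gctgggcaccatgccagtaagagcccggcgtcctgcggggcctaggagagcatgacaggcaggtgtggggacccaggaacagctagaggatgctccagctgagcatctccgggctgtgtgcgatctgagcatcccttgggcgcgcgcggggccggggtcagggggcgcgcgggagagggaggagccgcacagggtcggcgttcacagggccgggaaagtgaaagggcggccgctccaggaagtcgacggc
Slc2a2: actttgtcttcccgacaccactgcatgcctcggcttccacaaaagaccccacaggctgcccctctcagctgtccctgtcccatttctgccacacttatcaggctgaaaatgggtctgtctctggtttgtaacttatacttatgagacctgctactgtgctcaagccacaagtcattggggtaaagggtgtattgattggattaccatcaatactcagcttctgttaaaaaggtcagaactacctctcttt
Slc16a1: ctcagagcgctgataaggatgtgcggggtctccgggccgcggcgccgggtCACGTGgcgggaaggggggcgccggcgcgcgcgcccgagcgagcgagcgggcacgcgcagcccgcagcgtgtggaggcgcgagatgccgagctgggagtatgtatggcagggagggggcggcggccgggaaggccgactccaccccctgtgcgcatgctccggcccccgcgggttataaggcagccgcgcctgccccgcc
The RefSeq table held windows of 300 bases for 32 of the 42 genes, 37 windows in all; Slc16a6, Slc16a13 and Slc16a7 had none. Each of 3 palindromic motifs was searched on both strands. TTCNNNGAA, the letters of a STAT site, was in 0 of the 37 windows and in 8.30% of all 32851 windows. TGACGTCA, the letters of a cyclic AMP response element, was in 0 of 37 and in 1.79% of all windows. CACGTG was in 4 of the 37 and in 7.15% of all windows. Among genes that changed in liver it lay at -200 from the start of Slc16a1, at -240 from that of Slc16a12 and at -13 from one of the Slc37a3 starts. These are matches of letters in a short window, and no binding was measured.

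Slc16a6 encodes MCT7, which has been described as an exporter of the ketone body beta-hydroxybutyrate from zebrafish liver. Its virgin liver pools read 4.84, 5.09 and 4.65, near the dim level, and its pregnant liver pools read 8.75, 9.20 and 9.54. No pools overlapped. The rise came to 4.30 ± 0.18 (SE over 3 pools in each group; 95% interval 3.90 to 4.70; 19.7-fold; limma adjusted p = 2.8e-09), and it was 4.01 within pools 1 and 2 and 4.88 within pool 3. In lung it stayed near the dim level, at 4.60, 4.32 and 4.83 in virgin pools and 4.82, 4.81 and 4.55 in pregnant pools.

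The other 3 Slc16a genes that rose included the best known lactate carrier. Slc16a1, the gene of MCT1, read 9.57, 9.56 and 9.66 in virgin liver and 10.11, 10.25 and 10.49 in pregnant liver, a change of 0.69 ± 0.10 (SE; 1.61-fold; limma adjusted p = 0.00037), with 0.61 within pools 1 and 2 and 0.84 within pool 3. Its pools did not overlap. Slc16a13, a proton-coupled lactate carrier of liver, read 4.88, 5.15 and 4.95 in virgin and 5.97, 5.78 and 6.11 in pregnant liver, a change of 0.96 ± 0.11 (1.94-fold; limma adjusted p = 4.65e-05). Slc16a11, a monocarboxylate transporter gene tied to type 2 diabetes risk in humans, read 7.73, 7.70 and 7.58 in virgin and 7.94, 7.96 and 8.15 in pregnant liver, a change of 0.34 ± 0.10 (1.27-fold; limma adjusted p = 0.0335). Slc16a11 and Slc16a13 are neighbours with 0 protein-coding genes between them in RefSeq.

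The rise of Slc16a13 was 0.86 within pools 1 and 2 and 1.16 within pool 3. That of Slc16a11 was 0.23 within pools 1 and 2 and 0.57 within pool 3, and its call was lost in 5 of the 6 fits that each left out 1 liver array. The limma adjusted p for Slc16a11 was 0.0537, 0.0678 and 0.107 without virgin pools 1, 2 and 3, and 0.0512 and 0.0987 without pregnant pools 2 and 3. Without both pools 3 its change was 0.23 (limma adjusted p = 0.207).

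The 4 Slc16a genes that fell carry other substrates for the most part. Slc16a12, which carries creatine, read 9.16, 8.99 and 8.82 in virgin and 8.36, 8.30 and 8.18 in pregnant liver, a change of -0.71 ± 0.12 (SE; limma adjusted p = 0.000889). Slc16a7, the gene of MCT2, a high-affinity carrier of pyruvate and lactate, read 9.49, 9.48 and 9.48 in virgin and 8.98, 8.78 and 9.02 in pregnant liver, a change of -0.56 ± 0.12 (limma adjusted p = 0.00632). Both genes had pools that did not overlap, and within pool 3 their changes were -0.64 and -0.46, against -0.75 and -0.61 within pools 1 and 2.

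Slc16a9, a gene whose human counterpart has been linked to carnitine levels, read 5.92, 5.80 and 6.09 in virgin and 5.43, 4.96 and 5.65 in pregnant liver, a change of -0.59 ± 0.15 (SE; limma adjusted p = 0.0192). Slc16a10, the aromatic amino acid and thyroid hormone carrier TAT1, read 8.01, 7.83 and 7.93 in virgin and 7.28, 7.48 and 7.82 in pregnant liver, a change of -0.40 ± 0.12 (limma adjusted p = 0.0486). Both sets of pools stayed apart, but for Slc16a10 the pregnant pool 3 lay just under the lowest virgin pool. Slc16a10 differed by -0.54 over pools 1 and 2 and by -0.10 in pool 3, and that of Slc16a9 was -0.67 and -0.44. The call of Slc16a9 was lost without virgin pool 3 (limma adjusted p = 0.0754) and without pregnant pool 2 (limma adjusted p = 0.066). That of Slc16a10 was lost in 5 of 6 such fits, with limma adjusted p of 0.142, 0.0665 and 0.102 without virgin pools 1, 2 and 3, and of 0.182 and 0.12 without pregnant pools 1 and 2. Without pregnant pool 1 the change of Slc16a10 was -0.27.

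The remaining Slc16a genes were Slc16a3, Slc16a4, Slc16a5, Slc16a8 and Slc16a14, with liver changes from -0.19 to 0.15. Slc16a3, the gene of MCT4, the lactate exporter of glycolytic cells, was dim in all groups (3.48 to 3.67 as group means).

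Slc2a2 read 11.90, 11.79 and 11.75 in virgin liver and 10.86, 10.61 and 10.56 in pregnant liver. The lowest virgin pool was well above the highest pregnant pool. The difference came to -1.14 ± 0.11 (limma SE, limma adjusted p = 1.17e-05), with -1.11 within pools 1 and 2 and -1.19 within pool 3. Slc2a9, the urate transporter of the GLUT family, read 7.29, 7.14 and 7.20 in virgin and 6.49, 6.67 and 6.61 in pregnant liver, a change of -0.62 ± 0.09 (limma adjusted p = 0.000504). Its pools did not overlap either, with -0.64 within pools 1 and 2 and -0.59 for pool 3. Slc2a1, the widespread basal glucose transporter GLUT1, had a liver change of -0.07 (95% interval -0.31 to 0.17; limma adjusted p = 0.74).

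Slc2a3, the high-affinity glucose transporter GLUT3 of neurons and white blood cells, missed the threshold in liver. It read 4.59, 4.65 and 4.34 in virgin and 5.07, 4.87 and 5.37 in pregnant liver, a difference of 0.58 ± 0.21 (limma adjusted p = 0.0925), 0.35 within pools 1 and 2 and 1.03 within pool 3. The pregnant pools lay above the virgin pools but close to the dim level. Of 8 neutrophil markers, 3 rose in the same livers (S100a8, S100a9 and Ngp). The mean of all 8 ran from 5.04 to 5.18 in virgin and from 5.71 to 6.11 in pregnant liver. The part of neutrophils in the Slc2a3 value was not tested.

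Slc37a3, a lysosomal member of the sugar-phosphate family, read 6.94, 6.97 and 6.76 in virgin and 7.64, 7.45 and 7.74 in pregnant liver, a change of 0.72 ± 0.10 (SE; 1.64-fold; limma adjusted p = 0.000297), 0.59 within pools 1 and 2 and 0.97 within pool 3. The pools did not overlap. Slc37a4, the transporter that feeds glucose-6-phosphate to glucose-6-phosphatase, read 11.17, 10.75 and 10.94 in virgin and 10.84, 10.50 and 10.38 in pregnant liver. These pools overlapped, and the difference of -0.38 ± 0.13 missed the threshold (limma adjusted p = 0.0672). It passed without virgin pool 2 (-0.48, limma adjusted p = 0.0395) and without pregnant pool 1 (-0.51, limma adjusted p = 0.0177). Within pools 1 and 2 it was -0.29, and within pool 3 it was -0.55.

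No Slc5a gene changed in liver, and the smallest p belonged to Slc5a6, the sodium-dependent multivitamin transporter. Its values were 5.68, 5.39 and 5.03 in virgin and 4.51, 4.83 and 5.37 in pregnant liver, a difference of -0.46 ± 0.19 (limma adjusted p = 0.136). The pools overlapped because the pair numbered 3 ran the other way, with a difference of 0.34 against -0.87 within pools 1 and 2. Without pregnant pool 3 the difference was -0.70 (limma adjusted p = 0.015), and without both pools 3 it was -0.87 (limma adjusted p = 0.00309). The median difference over the 13 Slc5a genes was -0.09, and 7 of them were dim in all groups.

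**Figure D2:**
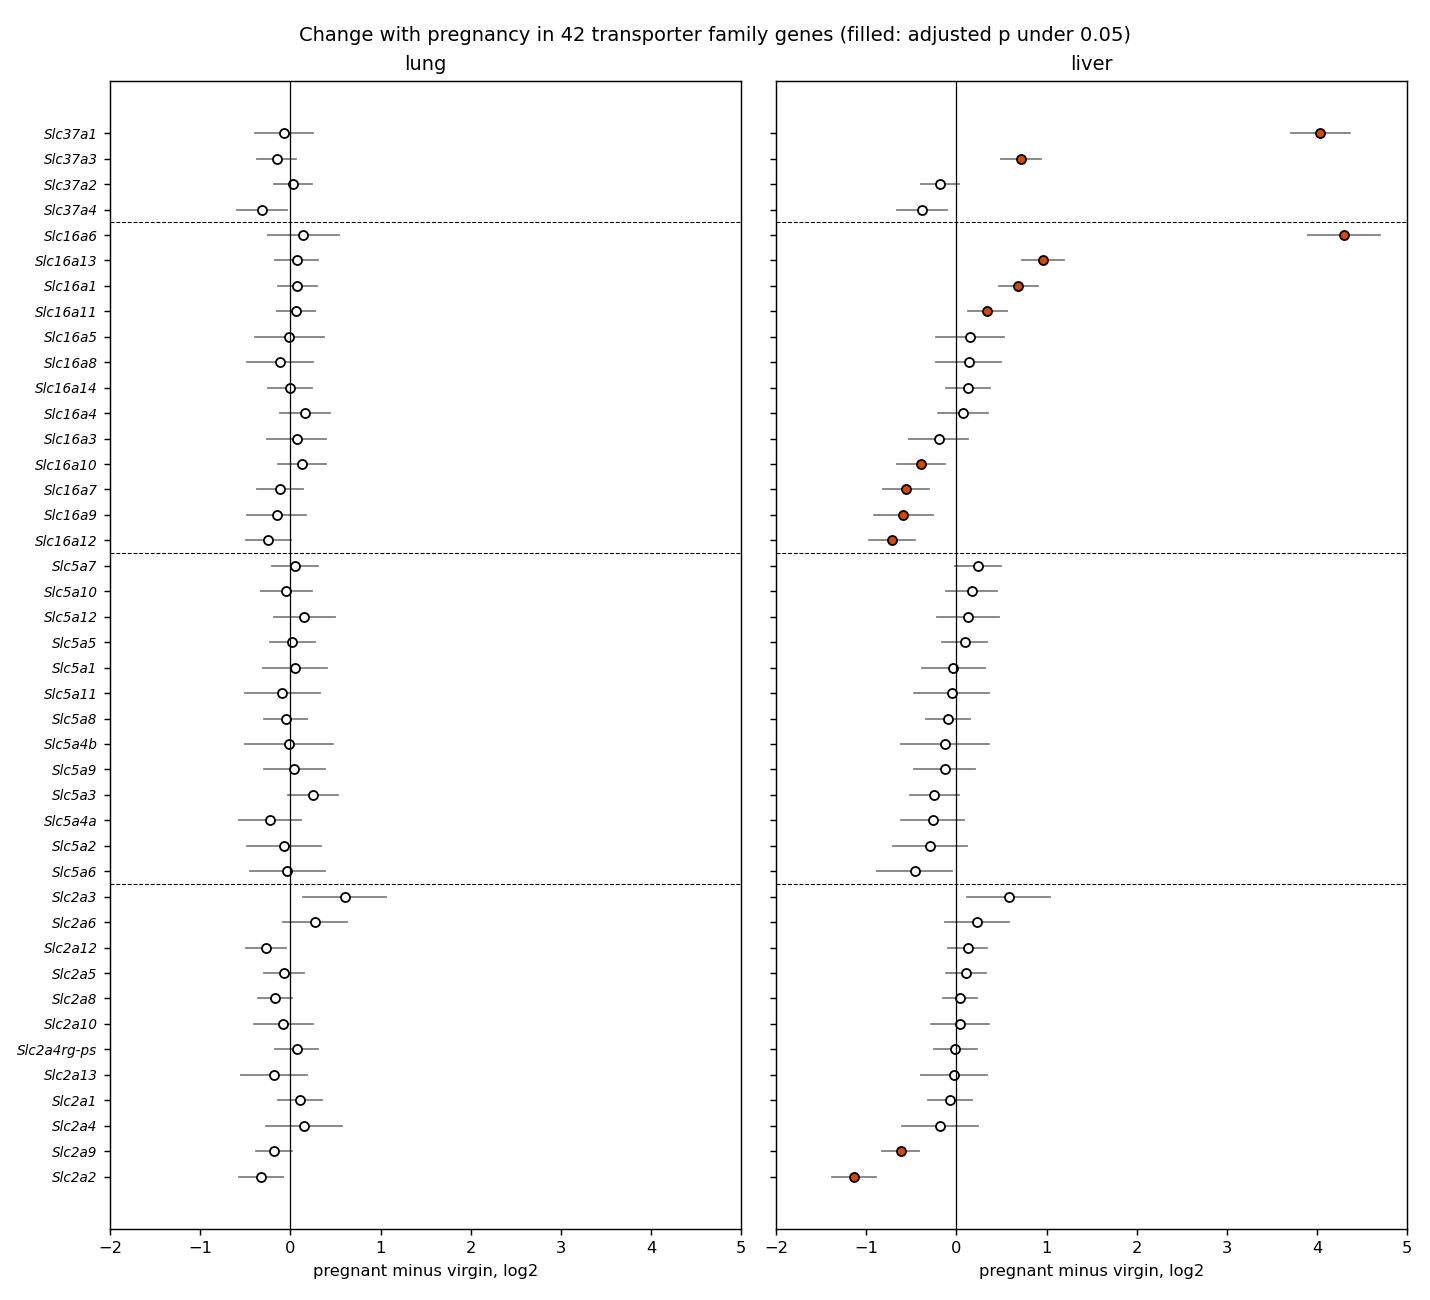
Pregnant minus virgin difference on the log2 scale (x axis) for all 42 genes in lung (left) and liver (right), ordered by family and liver value; points are fitted differences, lines their 95% intervals, and filled points have an adjusted p under 0.05. No point is filled in lung, and 12 are filled in liver.

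For genes with several probe sets, the one with the highest mean stood for the gene, and the other probe sets of a gene were examined as a second reading of it. Of the 12 genes that changed in liver, 5 were read by 8 additional probe sets, and the sign was the same in 7 and the opposite in 1. One of the 8 itself passed the threshold, in the same direction. It belonged to Slc16a10, with -0.67 ± 0.11 (limma adjusted p over all probe sets = 0.00102). The second Slc37a3 probe set gave 0.32 ± 0.12 (limma adjusted p = 0.119 over all probe sets), and the 2 further probe sets of Slc16a9 gave -0.23 and -0.12. For Slc2a9 the second probe set, above the dim level at a mean of 5.02, gave -0.24 ± 0.16 (limma adjusted p = 0.405 over all probe sets). The probe set with the opposite sign was the dim second one of Slc16a1, at a mean level of 3.13. Slc2a3 had 4 probe sets, whose liver differences were 0.58, 0.41, -0.14 and 0.03, and the last 2 were dim, with means of 2.70 and 2.40.

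**Figure D3:**
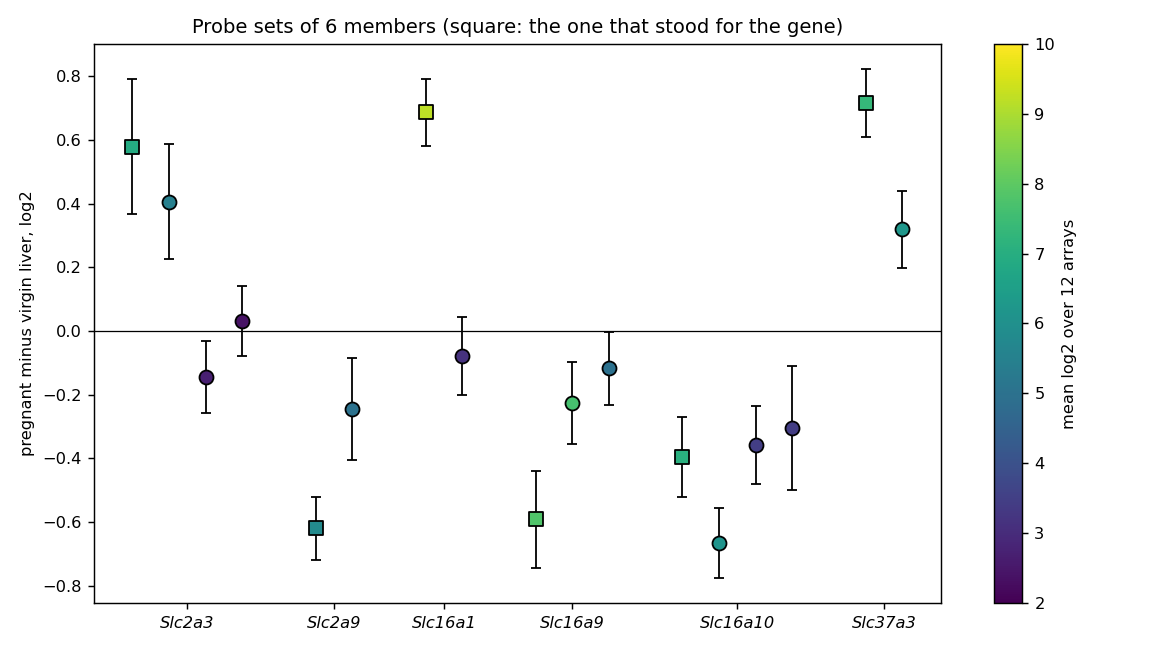
Pregnant minus virgin difference in liver (log2, y axis) for each probe set of 6 genes, with SE bars; squares are the probe sets that stood for the gene, and colour gives the mean log2 level over 12 arrays. For Slc37a3 the second probe set gave 0.32 where the first gave 0.72, and the probe sets of Slc2a3 ran from -0.14 to 0.58.

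Markers of several cell types were read on the same liver arrays, where 13.6% of all genes changed in either direction. Hepatocyte markers averaged 13.4 to 13.5 in virgin and 13.3 to 13.4 in pregnant liver, with 1 of 7 (Hamp) lower and 0 higher. Cell-cycle genes averaged 4.52 to 5.57 in virgin and 5.55 to 6.29 in pregnant liver, with 4 of 7 higher. Macrophage and Kupffer cell markers had 1 of 8 (Timd4) lower, bile duct and stellate cell markers 1 of 7 (Lrat) lower, endothelial markers 1 of 8 (Kdr) lower, and erythroid markers 1 of 6 (Alas2) higher. Pancreas acinar markers had 1 of 6 higher and 1 lower, and none of the adipocyte, striated muscle or lung epithelial markers passed the test in liver. The part of these cells in the transporter values was not tested.

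The second comparison asked the same of lung. None of the 42 genes changed there (0 of 42 at a limma adjusted p under 0.05, where 0.594% of all genes did), and 4 of 42 had an unadjusted p under 0.05, or 9.52%, against 9.87% of all genes. The differences ran from -0.33 to 0.60, with a median of -0.01. The pools did not overlap for 5 of the 42 genes, where 18.4% of all genes had such pools. They were Slc2a3 and Slc2a6, higher in pregnant lung, and Slc2a2, Slc2a12 and Slc37a4, lower in it.

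The member of each family with the smallest p in lung is given with its values. Slc2a2 was dim in lung, at 3.01, 3.29 and 3.02 in virgin and 2.93, 2.74 and 2.66 in pregnant pools, a difference of -0.33 (limma adjusted p = 0.269). Slc37a4 read 7.27, 7.32 and 7.47 in virgin and 7.09, 7.05 and 6.97 in pregnant lung, a difference of -0.32 ± 0.13 (limma adjusted p = 0.392). Slc5a3, the sodium and myo-inositol cotransporter, read 7.13, 7.23 and 7.01 in virgin and 7.66, 7.22 and 7.23 in pregnant lung, a difference of 0.25 ± 0.13 (limma adjusted p = 0.571). The pools of Slc5a3 overlapped, those of the other 2 genes did not. Slc16a12 differed by -0.25 (limma adjusted p = 0.522).

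The largest difference in lung was that of Slc2a3, which read 8.53, 8.54 and 8.88 in virgin and 8.88, 9.85 and 9.01 in pregnant lung. Pregnant pool 2 was the highest of these, and the lowest pregnant pool lay level with the highest virgin pool to 2 decimals. The difference was 0.60 ± 0.21 (limma adjusted p = 0.3). Neutrophil markers averaged 7.16 to 7.52 in virgin and 7.56 to 8.95 in pregnant lung, with 1 of 8 (S100a9) called higher. Their part in the Slc2a3 value was not tested.

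The third comparison tested whether the change with pregnancy differed between the tissues. It did for 6 of the 42 genes (14.3%), where 6.71% of all genes differed. Of these, 5 genes, all of which rose in liver, had a less positive change in lung, and Slc2a2 had a less negative one. For Slc16a6 the lung change minus the liver change was -4.16 ± 0.26 (limma adjusted p = 3.12e-07), and for Slc37a1 it was -4.11 ± 0.21 (limma adjusted p = 5.41e-08). Both genes differed by little between virgin and pregnant lung (0.14 and -0.07).

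Of the smaller differences, Slc16a13 had -0.89 ± 0.15 (limma adjusted p = 0.00308) and Slc37a3 -0.87 ± 0.14 (limma adjusted p = 0.00227). With suffixed probe sets left out, the value of Slc37a3 was -0.23 (limma adjusted p = 0.534). Slc16a1 had -0.61 ± 0.14 (limma adjusted p = 0.0188), which became -0.58 (limma adjusted p = 0.0504) without pregnant lung pool 2 and -0.28 (limma adjusted p = 0.223) with the mean of its probe sets. Slc2a2 had 0.81 ± 0.16 (limma adjusted p = 0.00706), but its lung values lay below the dim level and were not shown to be above background, so a fall like that in liver may not be visible there. For the other 6 genes that changed in liver the difference between tissues was not called. It was 0.44 for Slc2a9 (limma adjusted p = 0.0711), 0.52 for Slc16a10 (limma adjusted p = 0.0987), 0.47 for Slc16a12 (limma adjusted p = 0.119), 0.44 for Slc16a7 (limma adjusted p = 0.154), 0.44 for Slc16a9 (limma adjusted p = 0.28) and -0.28 for Slc16a11 (limma adjusted p = 0.286).

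The fourth comparison set virgin lung against virgin liver. Of the 42 genes, 28 differed (66.7%, where 68.7% of all genes differed), 10 of them higher in lung and 18 higher in liver. Of these 28, 14 had 22 further probe sets, with the same sign in 16 and the opposite in 6. Among the 6, 2 passed the threshold, for Slc2a1 (-0.36, limma adjusted p over all probe sets = 0.0109) and Slc2a3 (-0.28, limma adjusted p over all probe sets = 0.0401). The Slc2a genes divided into 5 higher in lung and 4 higher in liver, the Slc16a genes into 2 and 6, the Slc5a genes into 1 and 6, and the Slc37a genes into 2 and 2. The 4 genes of each family with the largest differences follow.

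Where a gene lay below the dim level of 4.60 in one tissue, its signal there was not shown to be above background, and the fitted difference can be read only as a bound. Among the genes named next, this holds for Slc2a2, Slc16a5 and Slc5a6 in lung and for Slc2a3, Slc2a12 and Slc2a13 in liver, while Slc5a12 and Slc5a4b lay below that level in both tissues and their differences show no size. Slc2a2 had virgin liver at 11.75 to 11.90 and virgin lung at 3.01 to 3.29 (-8.71 ± 0.11, limma adjusted p = 1.11e-16). Slc2a9 was also higher in liver, by a lung minus liver difference of -2.43 ± 0.09 (limma adjusted p = 1.08e-11), and its second probe set gave -1.17 ± 0.16. Slc2a3 read 8.53, 8.54 and 8.88 in virgin lung and 4.59, 4.65 and 4.34 in virgin liver (4.12 ± 0.21, limma adjusted p = 2.91e-10). Slc2a13, the proton and myo-inositol symporter, read 6.19, 6.60 and 6.35 in virgin lung and 3.73, 3.74 and 3.75 in virgin liver (2.64 ± 0.17, limma adjusted p = 3.61e-09). Slc2a5, the fructose transporter, was higher in liver (-1.91), and Slc2a12 was higher in lung (2.24), though its second probe set gave -0.35 ± 0.23 (limma adjusted p over all probe sets = 0.215). For Slc2a3 the lung excess rested on the 2 brighter probe sets, since the 2 dim ones gave -0.28 and -0.19.

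The Slc16a family split by member. Slc16a9 read 10.17, 10.01 and 9.98 in virgin lung and 5.92, 5.80 and 6.09 in virgin liver (4.12 ± 0.15, limma adjusted p = 6.43e-12). Slc16a5, an MCT family gene, read 3.31, 3.66 and 3.69 in virgin lung and 8.02, 8.06 and 7.55 in virgin liver (-4.32 ± 0.18, limma adjusted p = 1.9e-11). Slc16a12 (-3.22 ± 0.12, limma adjusted p = 5.16e-12) and Slc16a7 (-2.95 ± 0.12, limma adjusted p = 1.74e-11) were higher in liver too. Slc16a9 was thus high in lung while the creatine and pyruvate carriers were high in liver, with no overlap between tissues for any of these 4 genes.

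In the Slc37a family, Slc37a4 read 7.27, 7.32 and 7.47 in virgin lung and 11.17, 10.75 and 10.94 in virgin liver (-3.60 ± 0.13, limma adjusted p = 4.32e-12). Slc37a2 was slightly higher in liver (-0.48 ± 0.10, limma adjusted p = 0.000568). Slc37a1 was higher in lung (1.98 ± 0.15, limma adjusted p = 2.48e-08), and so was Slc37a3 (0.58 ± 0.10, limma adjusted p = 0.000161), whose second probe set gave -0.17.

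Among the Slc5a genes, Slc5a2, the sodium-glucose cotransporter SGLT2 known from kidney, read 5.88, 5.70 and 5.66 in virgin lung and 8.03, 7.41 and 6.95 in virgin liver (-1.72 ± 0.19, limma adjusted p = 1.56e-06). Its second probe set had means of 4.74 in virgin lung and 5.29 in virgin liver (-0.55 ± 0.14, limma adjusted p over all probe sets = 0.00311). Slc5a12, a sodium-coupled monocarboxylate transporter, read 4.32, 3.98 and 4.13 in virgin lung and 2.40, 2.60 and 2.43 in virgin liver (1.67 ± 0.16, limma adjusted p = 3.05e-07). All of the Slc5a12 values lay below the dim level. Slc5a6 was higher in liver (-0.91 ± 0.19, limma adjusted p = 0.000779). Slc5a4b was at 2.50 to 3.03 in virgin lung and 3.14 to 4.27 in virgin liver (-0.81 ± 0.23, limma adjusted p = 0.00602), all below the dim level. Slc5a4a, its neighbour in RefSeq with 0 protein-coding genes between them, is a close paralog, and whether the probe sets tell the pair apart was not tested.

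**Figure D4:**
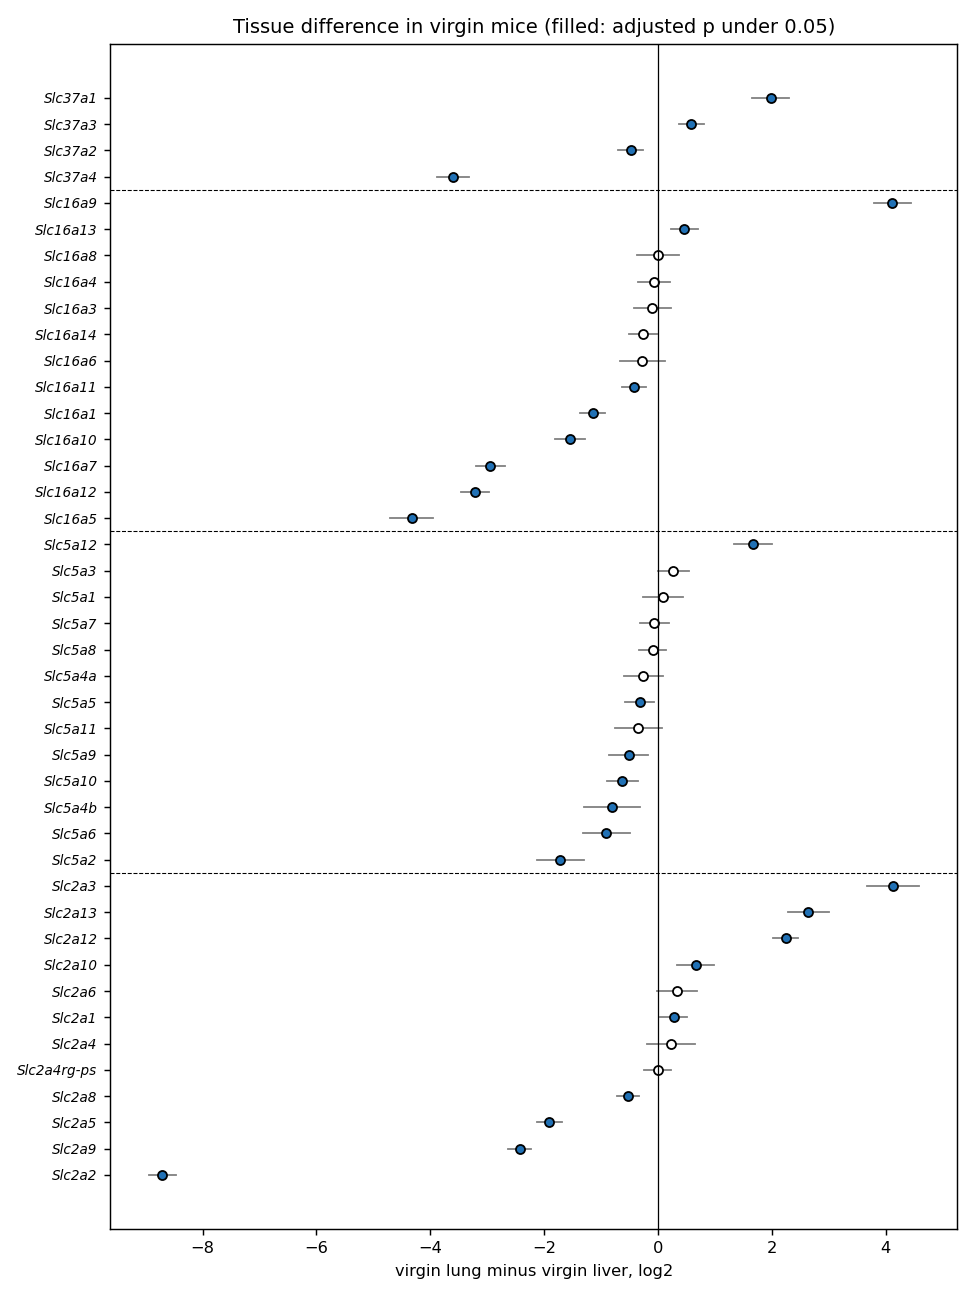
Virgin lung minus virgin liver difference on the log2 scale (x axis) for all 42 genes by family, with 95% intervals; filled points have an adjusted p under 0.05. Slc2a2 lies at -8.71 and Slc2a3 and Slc16a9 both at 4.12.

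Genes of the pathways these transporters serve were read from 7 lists of 95 genes, of which 82 were measured. The 82 include Nlk, a different gene that was taken for the listed Gpi1 through a shared name. Gpi1 itself was not read, and Nlk was not called in lung or liver. In liver 28 of the 82 changed (34.1%, where 13.6% of all genes did), 5 up and 23 down, with a median of -0.20. In lung 1 of 82 rose and 0 fell (1.22%, where 0.594% of all genes changed). The lung gene was Pdk4, the kinase that switches off pyruvate dehydrogenase, which read 6.61, 6.26 and 5.95 in virgin and 8.13, 7.74 and 7.08 in pregnant lung (1.38 ± 0.27, limma adjusted p = 0.0369). Of 6 adipocyte markers, 1 also rose in these lungs, Lipe, by 0.86 (limma adjusted p = 0.0349), and the mean of all 6 ran from 3.96 to 4.35 in virgin and from 4.06 to 4.61 in pregnant lung. Striated muscle markers averaged 7.39 to 7.59 in virgin and 6.75 to 8.15 in pregnant lung, with 0 of 8 called. The part of these cells in the Pdk4 value was not tested. All 28 liver genes had the same sign within pools 1 and 2 as within pool 3. These genes were called from the same arrays, which favours such a match, so it is no separate check. Those named here whose pool 3 value was smaller than the full one by over 1.5 times were Aldoc (-0.39 within pool 3, -1.32 within pools 1 and 2), Pdk2 (-0.29 and -0.80), Dio1 (-0.40 and -0.77), Bdh2 (-0.69 and -1.23) and Gbe1 (-0.55 within pool 3). The lists were chosen with earlier results of these data known, and the counts are descriptions.

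Of the 15 genes of pyruvate, lactate and the transporter chaperones, 2 rose and 6 fell in liver. Basigin (Bsg), the chaperone that takes MCT1 to the cell surface, read 9.92, 10.27 and 10.22 in virgin and 10.63, 10.63 and 11.12 in pregnant liver, a change of 0.66 ± 0.17 (limma adjusted p = 0.0198). Its pools did not overlap. Ldha, which interconverts pyruvate and lactate, read 11.37, 11.56 and 11.64 in virgin and 12.15, 12.12 and 12.19 in pregnant liver, a change of 0.63 ± 0.09 (limma adjusted p = 0.000262). Pdk1 (-0.80), Ldhd (-0.69) and Pdk2 (-0.63) fell most among the 6.

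The ketone body list had 4 of 5 genes lower in liver. Aacs, which activates acetoacetate for lipid synthesis, changed by -1.36 ± 0.14 (limma adjusted p = 1.43e-05), Bdh2 by -1.05, Oxct1, the ketone-using enzyme, by -0.77 and Acat1 by -0.28. Of 5 fructose and polyol genes, 1 fell, Khk, the ketohexokinase that starts fructose use, from 11.2 to 9.91 as group means (-1.25 ± 0.14, limma adjusted p = 3.12e-05).

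The glycolysis list was read with Nlk in place of Gpi1. Of its 18 measured genes, Nlk included, 4 were lower and 0 higher in liver. They were Aldoc (-1.01 ± 0.18), the liver pyruvate kinase gene Pklr (-0.83 ± 0.13), Hk3 (-0.42) and Pgam1 (-0.27), with limma adjusted p from 0.000565 to 0.0353. In the list of glucose output and glycogen, 3 of 17 fell and 1 rose. Ppp1r3b, which targets a phosphatase to glycogen, changed by -1.15, the branching enzyme gene Gbe1 by -0.85, the phosphorylase gene Pygl by -0.46, and the glycogen synthase gene Gys2 by 0.59. G6pc, which acts after Slc37a4, did not pass the test (0.42 ± 0.38, limma adjusted p = 0.533).

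In the list of glucose and insulin response, 2 of 15 rose and 3 fell. Igfbp1, a secreted protein made by fasted liver, changed by 1.71 ± 0.17 (limma adjusted p = 1.06e-05), Srebf1, the lipogenic transcription factor, by -1.25 ± 0.10 (limma adjusted p = 1.59e-06), and Mlxipl, the gene of the glucose-responsive factor ChREBP, by -0.76 ± 0.16 (limma adjusted p = 0.00446). Irs2 changed by 0.61. Of 7 thyroid hormone response genes, 2 fell, Me1 (-1.81 ± 0.11, limma adjusted p = 1.41e-07) and the deiodinase gene Dio1 (-0.65 ± 0.19, limma adjusted p = 0.0379).

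**Figure D5:**
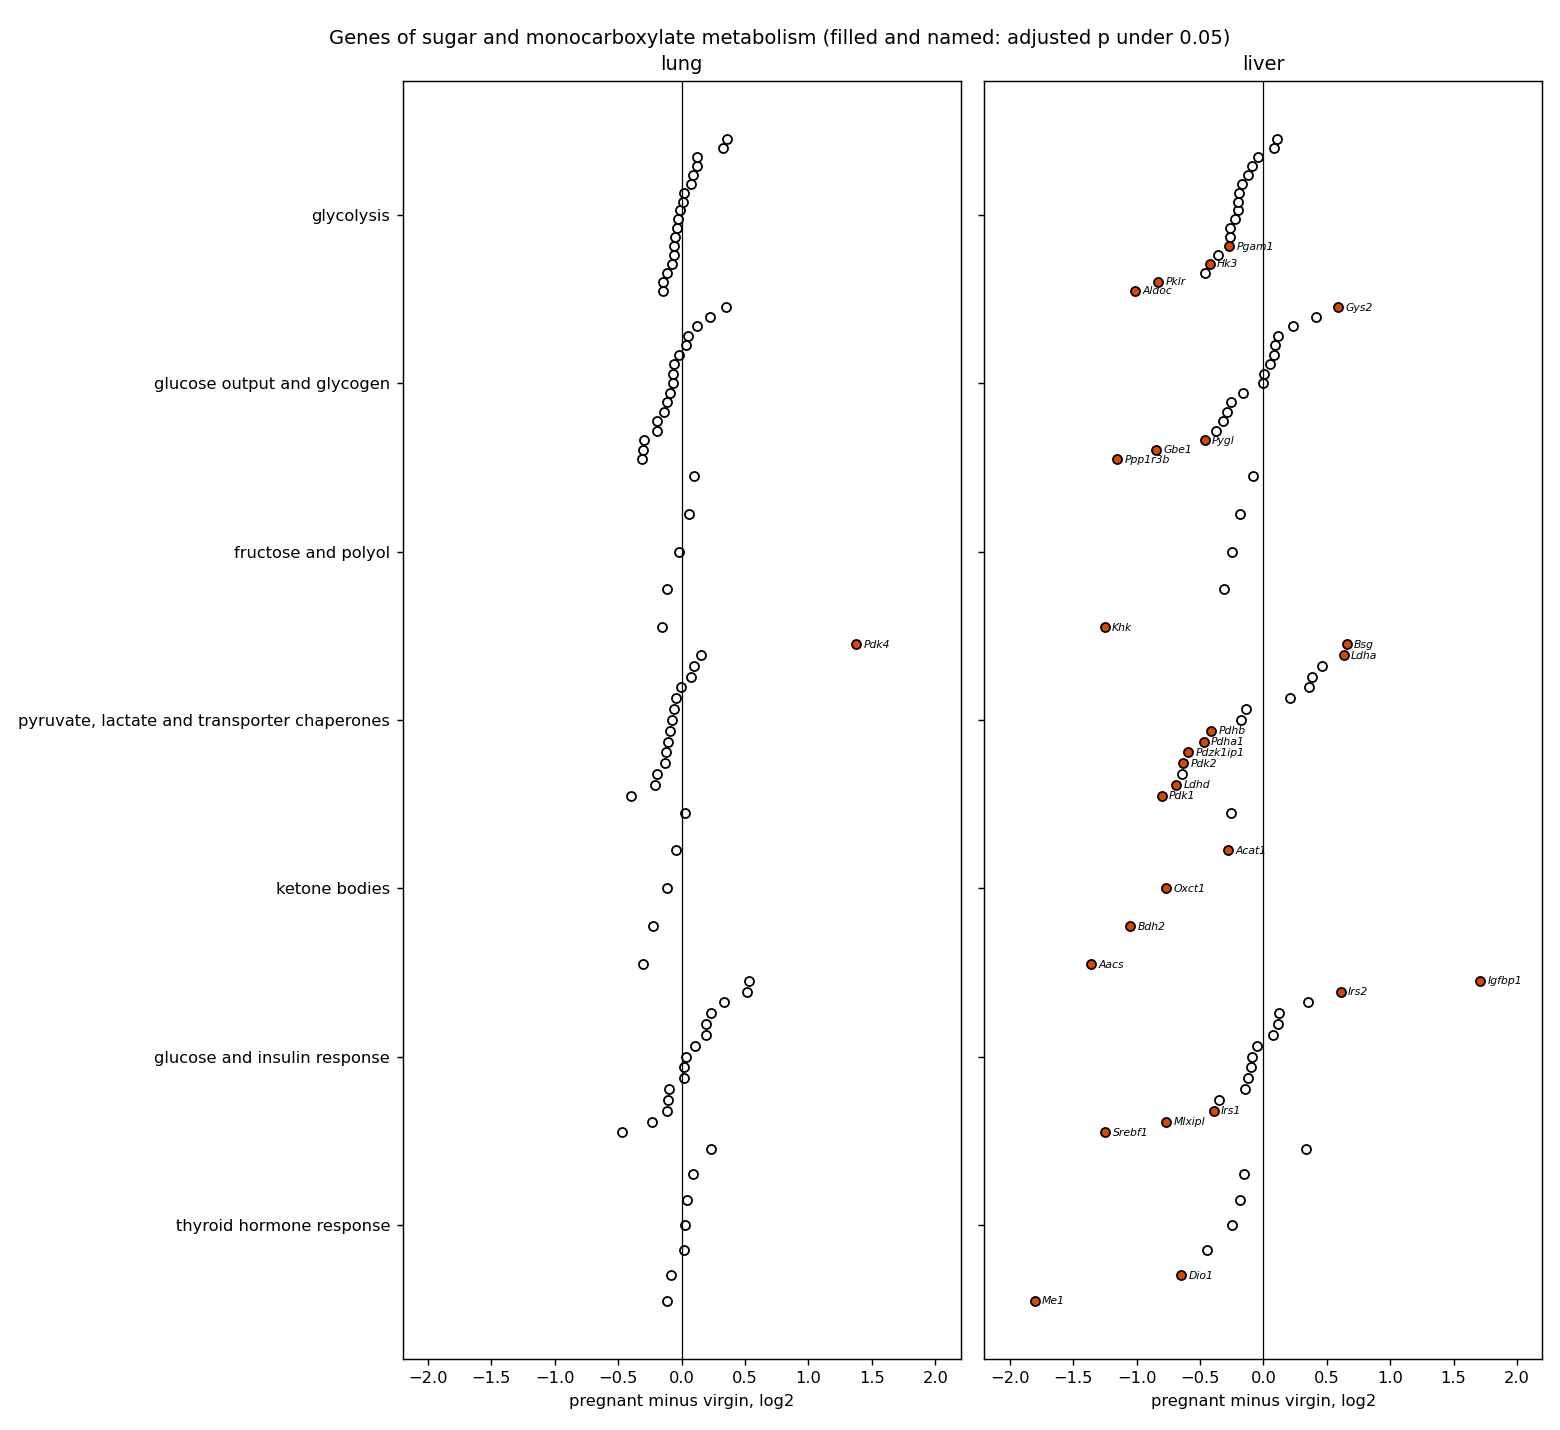
Pregnant minus virgin difference on the log2 scale (x axis) for 82 genes in 7 pathway lists, in lung (left) and liver (right); filled and named points have an adjusted p under 0.05. In liver 23 filled points lie below 0 and 5 above it, and lung has 1 filled point, Pdk4. The glycolysis points include Nlk, read in place of Gpi1.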

How the data were processed

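RNA from lung and liver of virgin and pregnant mice was hybridised to 12 arrays, 1 per pool. The deposited table holds log2 expression values that the authors made with RMA in the affy package, per the submitters' processing notes; versions and which arrays were normalized together are not given in the sources used here. RMA summarises the probes of a probe set and equalises array distributions, so shared shifts are removed. Probe sets were named by the platform annotation where it gave 1 symbol (34945 of 45037 without controls; 932 had several and 9160 none), and each gene was read from its probe set with the highest mean. limma (3.58.1, R 4.3.3) fitted 4 group means (lmFit, eBayes), with Benjamini-Hochberg adjustment over 18193 genes and calls at an adjusted p under 0.05. The script was tested on simulated data. Other normalizations, probe set rules, filters, blocks and fits without single arrays were tried. Named were all genes called with pregnancy or in the tissue contrast of changes, the smallest p of a family without calls, up to 4 genes per family between tissues, up to 4 per pathway list and near misses (adjusted p 0.05 to 0.1); G6pc, Ldha, Slc2a1, Slc16a3, Slc2a5 and Slc2a12 were added after their values were seen. The genes and lists were chosen with earlier results of these data known. The number of arrays limits the precision.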

Additional observations from a re-analysis of the deposited data

Results flagged for a closer look

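The change with pregnancy differed between lung and liver, by the interaction test in limma, for 6 of the 42 genes. The lung change minus the liver change was -4.16 for Slc16a6 (limma adjusted p = 3.12e-07), -4.11 for Slc37a1 (5.41e-08), -0.89 for Slc16a13 (0.00308), -0.87 for Slc37a3 (0.00227), -0.61 for Slc16a1 (0.0188) and 0.81 for Slc2a2 (0.00706). Slc2a2 read 2.66 to 3.29 in lung, below the dim level of 4.60, so a fall like that in liver may not be visible there. With suffixed probe sets left out, Slc37a3 had -0.23 (limma adjusted p = 0.534).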

How the results depend on the processing

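Of the 12 genes called in liver, 8 stayed called in all 19 alternatives and none reversed. Slc16a10, Slc16a11, Slc16a9 and Slc37a3 lost the call in 11, 10, 3 and 1 of them. Requiring at least a 2-fold difference left 3 calls in liver, 2 in the difference between tissues and 16 between virgin tissues. Over all 18193 genes the same rule left 326, 372 and 5040 calls. In lung, 0 of the 42 genes were called in every alternative run. Without probe sets whose suffix marks probes shared between transcripts, Slc2a3 turned to -0.14 in liver (limma adjusted p = 0.467) and -0.28 between tissues (0.035), and Slc37a3 to -0.17 between tissues (0.23). Leaving out 1 array gave 9 to 12 calls in liver, 5 to 7 in the difference between tissues and 26 to 29 between tissues. Pool numbers were not used as pairs of virgin and pregnant pools within a tissue, since same-number deviations there correlated from -0.08 to 0.11. Pairing of lung with liver pools was not examined, and all arrays were fitted as independent. With the pool number within tissue as a replicate block, 0 genes were called in lung, 11 in liver, 6 in the difference and 27 between tissues. With that block Slc16a10 (0.0673) and Slc16a11 (0.0848) were not called and Slc37a4 was (0.0455). With the 6 liver arrays fitted alone Slc2a3 was called (0.0413), while Slc16a9, Slc16a10 and Slc16a11 lost their calls. The causes were not tested. For the 11 genes below the dim level in all groups, signal over background was not shown.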
